A study of Mus musculus with 20 samples.

Results

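The 32 genes described here are the regulators that make and keep skeletal muscle and the genes of the contractile apparatus that they switch on. They were taken by name from a list chosen with earlier results of these data known, under a rule that uses no measured value, and all 32 were found among 21631 protein-coding genes of the RefSeq table. Of these, 10 are transcription factors (Myod1, Myf5, Myog, Myf6, Mef2a, Mef2c, Mef2d, Pax3, Pax7 and Six4). The other 22 are called sarcomere and muscle fibre genes below, a name that also takes in the creatine kinase Ckm, the intermediate filament desmin (Des) and the membrane protein caveolin-3 (Cav3), which are not sarcomere subunits.

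The study mapped 5 targets by CUT&Tag, which uses an antibody to tether a cutting and tagging enzyme at a chromatin protein, so that DNA close to the protein is what gets sequenced. Only the ATF4 groups are used here: wild-type C2C12 cells, an immortal line of mouse myoblasts kept in medium with fetal bovine serum, treated for 6 h with the solvent DMSO or with 100 nM thapsigargin. Thapsigargin blocks the calcium pump of the endoplasmic reticulum and causes ER stress, which raises ATF4, a basic leucine zipper (bZIP) factor of the integrated stress response. Each ATF4 group has 2 replicates in the labels but 1 deposited peak list, with 803 peaks in DMSO and 8619 in thapsigargin, so there is no replicate error and no test between conditions, and read depth is unknown. How far depth or the calling threshold set the longer thapsigargin list was not tested.

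In the muscle lineage, Pax3, Pax7, Six4 and Myf5 act early, Myod1 and Myf5 commit cells to the myoblast fate, and Myog, Myf6 and the MEF2 factors drive differentiation into fibres. The bHLH factors among them bind E-boxes (CANNTG), often together with MEF2 sites. Thick filaments are built of myosin heavy and light chains, thin filaments of actin with troponin, and titin, nebulin and alpha-actinin hold the lattice. Proliferating myoblasts express Myod1 and Myf5, while most filament genes rise when the cells leave the cycle and fuse. The peak lists hold no expression values, so neither the labelled cell type nor the expression of any gene could be checked from them. Genes that mark other cell types, Alb and Epcam among them, had no peak at their ends in either list (0 of 12). The Wilson interval of this count reaches 24.2% and includes the share of all protein-coding genes, 15.1% in thapsigargin and 1.29% in DMSO. The 32 muscle members also had none, so the count does not check cell type.

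None of the 32 members had an ATF4 peak called at a gene end in either condition. A peak counted as at a gene end when its centre lay within 1 kb of either end of the gene, since the table gives no strand. In thapsigargin 0 of 32 members met this (95% Wilson interval 0% to 10.7%), against 15.1% of all protein-coding genes. In DMSO it was also 0 of 32, against 1.29%, a share that the same interval includes. Length moves this background: in thapsigargin 10.6% of genes under 10 kb, 18.5% of those between 10 and 100 kb and 13.6% of longer ones had such a peak, and the members number 10, 18 and 4 in these bands. By group, this was 0 of 10 regulators (interval up to 27.8%) and 0 of 22 sarcomere and muscle fibre genes (interval up to 14.9%). These intervals treat genes as independent draws and cover counting error only, and neighbouring members share peaks.

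A second table gives the strand and 1 or more starts of transcription for 26 members. Myod1, Myf6, Pax3, Tnnt3, Tnni2 and Neb had no entry. Measured from those starts, 1 of 26 members had a thapsigargin peak centred within 1 kb, against 16.4% of 17274 genes with an entry, and 0 of 26 had a DMSO peak, against 1.38%. The 1 member was Myl4, which encodes a myosin light chain of embryonic and atrial muscle. Its peak (chr11:104549996-104550611, mm10, 616 bp wide) was centred 359.5 bp from the Myl4 start at position 104550663. The same peak was centred nearer, 316.5 bp, to the start of Cdc27, a subunit of the anaphase-promoting complex that is transcribed away from Myl4 on the other strand. Both starts thus lie in the same short stretch of chromosome 11, and the list does not tell their signals apart.

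Promoter windows show what bases stand at these starts. The windows run from 250 bases before to 50 after the start, on the gene's strand, and come from RefSeq (GRCm38.p6, to which mm10 corresponds). The first is Myl4, the only member window touched by a peak. It covers that peak only from 104550413 to 104550611, and the rest of the peak was not searched. The window holds none of 4 bZIP motifs searched on both strands. These were TGATGNAA (a core of the composite C/EBP-ATF element), TGACGTCA (the cAMP response element), TTGCGCAA (a C/EBP site) and TGANTCA. With any base at N, TGANTCA takes in the AP-1 sites TGACTCA and TGAGTCA but also words with A or T there. The second, Tnnt1, encodes slow troponin T and is the only member with a match to TGATGNAA, in capitals, yet its nearest thapsigargin peak was 297 kb away. The third, Nup133, a nuclear pore gene, lies under the peak nearest to skeletal alpha-actin (Acta1) and has 2 matches to TGACGTCA in capitals. Nup133 is the exception here. Windows of Cdc27, Dnpep, Ercc1, Heatr1, Ngdn and Snx21, also overlapped by peaks within 100 kb of a member, hold no match to these 4 motifs. Each window covers only part of its peak, so the bases of the peak outside it were not searched. TGACGTCA was found in 4.99% of all 3126 promoters that overlapped a thapsigargin peak. The last is Myog, with its 2 E-boxes in capitals and no peak within 100 kb.
Myl4 (chr11:104550413-104550712, plus strand): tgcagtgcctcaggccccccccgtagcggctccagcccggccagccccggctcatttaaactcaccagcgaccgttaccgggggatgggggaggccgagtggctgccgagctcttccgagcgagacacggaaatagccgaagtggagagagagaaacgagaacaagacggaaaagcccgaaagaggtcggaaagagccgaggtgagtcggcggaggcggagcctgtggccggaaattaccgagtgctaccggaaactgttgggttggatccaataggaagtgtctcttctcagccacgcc
Tnnt1 (chr7:4515926-4516225, minus strand): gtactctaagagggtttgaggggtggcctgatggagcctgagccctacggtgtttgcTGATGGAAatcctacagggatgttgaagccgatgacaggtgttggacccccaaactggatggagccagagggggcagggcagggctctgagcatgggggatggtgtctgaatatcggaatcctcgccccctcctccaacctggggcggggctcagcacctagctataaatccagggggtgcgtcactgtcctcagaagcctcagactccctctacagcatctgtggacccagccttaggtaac
Nup133 (chr8:123949216-123949515, minus strand): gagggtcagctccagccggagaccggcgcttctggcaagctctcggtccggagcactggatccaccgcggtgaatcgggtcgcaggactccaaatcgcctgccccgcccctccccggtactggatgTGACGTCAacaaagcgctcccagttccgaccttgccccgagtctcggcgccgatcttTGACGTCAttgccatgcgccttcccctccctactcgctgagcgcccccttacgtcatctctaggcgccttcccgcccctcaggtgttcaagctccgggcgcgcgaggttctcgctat
Myog (chr1:134289754-134290053, plus strand): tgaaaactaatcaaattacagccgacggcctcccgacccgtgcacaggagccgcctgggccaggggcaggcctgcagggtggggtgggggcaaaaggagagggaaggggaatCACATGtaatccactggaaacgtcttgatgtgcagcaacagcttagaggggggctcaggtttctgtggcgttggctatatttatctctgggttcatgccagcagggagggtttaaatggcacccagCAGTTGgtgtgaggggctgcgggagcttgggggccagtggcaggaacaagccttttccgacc

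Over all 31 windows of the 26 members, matches to bZIP motifs were few. TGATGNAA occurred in 1 of 31 (3.23%), against 3.45% of 21045 promoters of protein-coding genes. The same motif was found in 20.6% of the 253 promoters that overlapped a DMSO peak and in 3.84% of the 3126 that overlapped a thapsigargin peak. TGANTCA occurred in 2 of 31 member windows (1 of the 3 Mef2c windows and Myh1), against 7.04% of all promoters. The matches read TGAATCA in Mef2c and TGATTCA in Myh1, so neither is an AP-1 site. TGACGTCA occurred in 0 of 31, against 2.26%. TTGCGCAA was in 0 of 31, against 0.223%. E-boxes were present in 18 of 21 windows of sarcomere and muscle fibre genes (85.7%), in 3 of 10 windows of regulators, which belong to 7 genes, and in 69.0% of all promoters. Motifs were counted each on its own and may overlap. A match is a description of the letters only, and no genome sequence was used for the distal peaks.

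Within gene bodies, over 1 kb from both ends, thapsigargin peaks were found in 2 of 32 members (6.25%, interval 1.73% to 20.1%), against 10.1% of all protein-coding genes. The 2 were Mef2a and Myl4. In DMSO it was 0 of 32, against 1.30%. Bodies of long genes hold peaks more often: 37.4% of the 2427 genes over 100 kb had one. Among the 4 members of that length only Mef2a did, while Mef2c (163 kb), nebulin (Neb, 202 kb) and titin (Ttn, 279 kb) had none. Of the 18 members between 10 and 100 kb, Myl4 alone had a peak in its body, against 10.4% of genes of that length.

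With wider reach the members came close to other genes. Distance was measured from the peak centre to the gene, with 0 inside it. Within 10 kb, 6 of 32 members had a thapsigargin peak (18.8%, interval 8.89% to 35.3%), against 30.5% of all protein-coding genes. The 6 were Mef2a, Mef2d, Myf6, Myh2, Myl4 and Tnnc2. Within 50 kb it was 15 of 32 (46.9%) against 51.1%, and within 100 kb 21 of 32 (65.6%) against 64.4%. The members' share was below the background at gene ends, in bodies and within 10 kb, though in bodies and within 10 kb the interval included the background. At 50 and 100 kb the shares lay near it. This holds for all peaks counted for every gene in reach, and other settings, given by group below, moved it. In DMSO, 1 of 32 members had a peak within 10 kb (background 3.56%), and 2 of 32 within 50 kb (8.01%) and within 100 kb (12.8%).

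**Figure D1:**
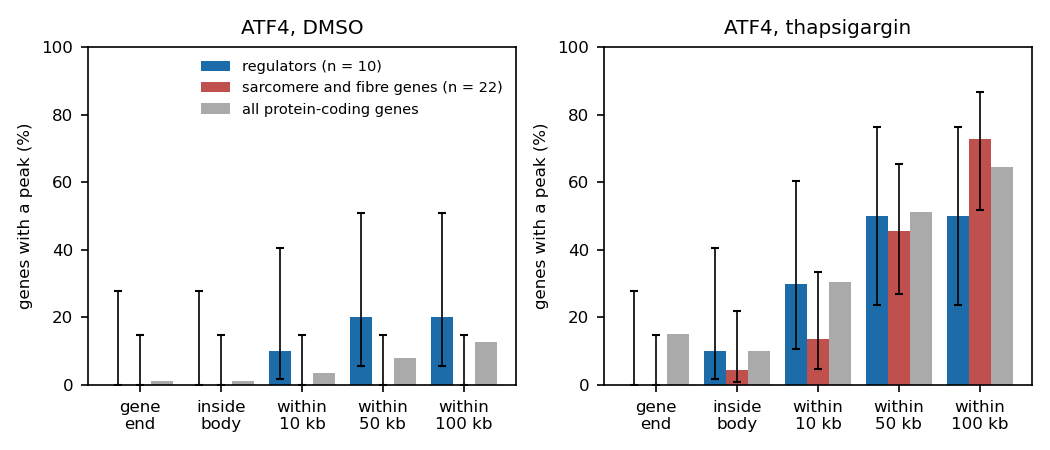
Share of genes with an ATF4 peak (y axis, percent) at a gene end, inside the body and within 10, 50 and 100 kb (x axis) in DMSO (left) and thapsigargin (right). Blue bars are the 10 regulators and red bars the 22 sarcomere and muscle fibre genes, both with 95% Wilson intervals. Grey bars are all 21631 protein-coding genes, drawn without intervals. Both muscle groups are at 0 at gene ends, and within 10 kb in thapsigargin they reach 30.0% and 13.6%, beside 30.5% of all genes.

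Regulators and sarcomere genes were not clearly apart in thapsigargin. Within 10 kb the count was 3 of 10 regulators (30.0%, interval 10.8% to 60.3%) and 3 of 22 sarcomere and muscle fibre genes (13.6%, interval 4.75% to 33.3%). Within 50 kb it was 5 of 10 and 10 of 22 (45.5%). Within 100 kb it was 5 of 10 (interval 23.7% to 76.3%) and 16 of 22 (72.7%, interval 51.8% to 86.8%). The intervals overlapped at each reach, and the difference was not tested. The count of 16 depended on narrow peaks and on peaks nearer to other genes. With the wider 4310 peaks it was 7 of 22 (31.8%) beside 4 of 10 regulators and 44.6% of all protein-coding genes. With the 803 widest peaks it was 4 of 22 (18.2%) beside 4 of 10 and 12.6%. With each peak counted only for its nearest gene it was 2 of 22 (9.09%) beside 3 of 10 and 26.5%, so the order of the groups at 100 kb turned under all 3 settings. The regulators had a median of 2.5 protein-coding genes within 100 kb, the sarcomere and muscle fibre genes 4 and all protein-coding genes 4. In DMSO the only members with a peak within 100 kb were 2 regulators, Myf5 and Myf6, and both owed it to 1 peak.

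That peak lies beside the Myf5-Myf6 pair, neighbouring genes of bHLH factors on chromosome 10. In thapsigargin it spanned chr10:107502023-107503884 (1862 bp, wider than 95.8% of the list by rank percentile), centred 8.23 kb from Myf6 and 16.0 kb from Myf5 (chr10:107482908-107486927), on the upstream side of Myf5. The DMSO peak, chr10:107502503-107503619 (1117 bp), lay wholly inside it and was centred 8.34 kb from Myf6. No protein-coding gene covers the site, but both centres fall inside a long non-coding RNA gene, Gm36177. Of 25 distinct thapsigargin peaks within 100 kb of any member, only this 1 overlapped a DMSO peak, against 9.25% of the whole thapsigargin list. A DMSO peak nearer than that of Myf6 was found for only 3.41% of protein-coding genes.

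Of the other myogenic bHLH genes, Myog, which drives terminal differentiation, had its nearest peak 114 kb away in both conditions, at an end of Cyb5r1 (thapsigargin chr1:134405730-134407098, DMSO chr1:134406028-134406798). Myod1 (chr7:46376474-46379092) had no peak within 500 kb in either condition. Its nearest thapsigargin peak was 585 kb away, 5.13 kb from Uevld, and 90.4% of protein-coding genes had one nearer. The nearest DMSO peak to Myod1 was 653 kb away. Among all protein-coding genes 11.1% had no thapsigargin peak within 500 kb, and among the members Myod1 was the only one. In DMSO 19 of 32 members had none in that window, against 62.9%.

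The MEF2 genes, which encode partners of the bHLH factors, ranged from peaks inside the gene to none within 100 kb. Mef2a (chr7:67231163-67376456) held 2 thapsigargin peaks in its body. The wider one, chr7:67243251-67245092 (1842 bp), was centred 13.0 kb from the nearer gene end, and the narrower, chr7:67259966-67260678 (713 bp), 29.2 kb from it. Mef2a is on the minus strand with its start at 67372858, so both peaks are towards the 3' end of the gene. Mef2d had a narrow peak (chr3:88177672-88178153, 482 bp) 5.82 kb downstream, 0.128 kb from the non-coding gene 1700113A16Rik. Mef2c, with no other protein-coding gene within 100 kb, had its nearest thapsigargin peak 356 kb away and its nearest DMSO peak 6486 kb away. Nearest DMSO peaks of the other 2 were 1428 kb from Mef2a and 319 kb from Mef2d.

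Pax3, Pax7 and Six4 had no peak within 30 kb in either condition. Six4 (chr12:73099609-73114031) had a thapsigargin peak 33.5 kb upstream (chr12:73147013-73148034) and 1022 bp wide, inside Mnat1. Pax7, the satellite cell factor, was 114 kb from its nearest thapsigargin peak, a 344 bp peak at an end of Aldh4a1 (chr4:139622763-139623106), and 135 kb from the nearest DMSO peak. For Pax3 these distances were 151 kb, to a peak inside Sgpp2, and 292 kb. The median distance of the 10 regulators to a thapsigargin peak was 73.7 kb, beside 54.7 kb for the 22 sarcomere and muscle fibre genes and 46.9 kb for all protein-coding genes. In DMSO these medians were 305 kb, 935 kb and 844 kb.

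**Figure D2:**
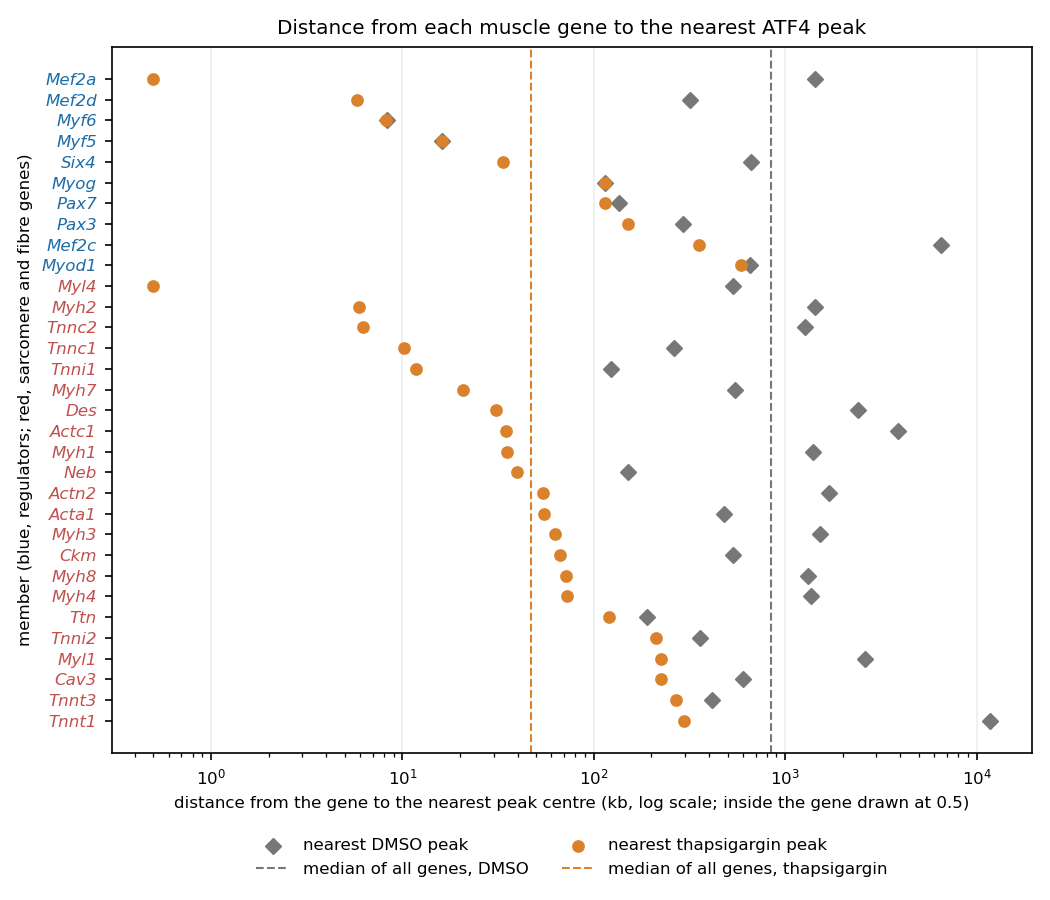
Distance from each member to the nearest peak centre (x axis, kb on a log scale, with peaks inside the gene drawn at 0.5) in thapsigargin (orange circles) and DMSO (grey diamonds). Members are rows, regulators in blue and sarcomere and muscle fibre genes in red, and dashed lines are the medians of all protein-coding genes (46.9 kb and 844 kb). For Myf5, Myf6 and Myog the symbols of both conditions nearly coincide.

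The skeletal myosin heavy chain genes stand in a row on chromosome 11 and share their distal peaks. A 681 bp thapsigargin peak, chr11:67164744-67165424, was 5.94 kb upstream of Myh2 (fast type IIa myosin) and also the nearest peak to Myh1 (35.0 kb), Myh3 (embryonic myosin, 62.8 kb) and Myh4 (72.7 kb). Perinatal Myh8 was nearest to another, chr11:67379398-67380473, at 71.3 kb and 8.35 kb from Myh13. No peak fell inside any of these 5 genes, and their nearest DMSO peak, 1 and the same for all, was 1315 kb to 1522 kb away. Counted as loci whose 100 kb reaches meet, the 22 sarcomere and muscle fibre genes make 17.

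Slow myosin Myh7, on chromosome 14, had a peak 20.7 kb upstream, chr14:55014801-55015912, centred 97.5 bp from an end of Ngdn. A wider one lay 60.1 kb upstream (chr14:55053857-55055610, 1754 bp), 5.53 kb from Zfhx2. Of the light chains, Myl1 was 223 kb from its nearest thapsigargin peak, at an end of Rpe. Myl4 (chr11:104546017-104587215) had, beside the peak at the Cdc27 end, the widest peak of all 25, chr11:104560764-104562836 (2073 bp), 15.8 kb inside the gene. That peak also lies inside the non-coding gene Gm11665. Another peak was 27.2 kb downstream, inside Itgb3.

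Among the thin filament genes, the actins had no peak nearer than 34.9 kb. Cardiac actin Actc1 (chr2:114047282-114052875) had one at that distance (chr2:114087303-114088270), outside genes. Skeletal actin Acta1 (chr8:123891758-123894775) was 54.9 kb from the peak at Nup133 (chr8:123948830-123950471, 1642 bp). The troponins were spread widely. Tnnc2, the fast calcium-binding subunit, was 6.21 kb from a peak at an end of Snx21 (chr2:164785498-164786388), and Tnnc1, the slow and cardiac form, 10.1 kb from a 437 bp peak inside Nisch (chr14:31197963-31198399). Slow inhibitory troponin Tnni1 had 3 peaks within 100 kb. The nearest, 11.8 kb upstream (chr1:135770836-135771704), lay 2.14 kb from Phlda3. Another was 53.9 kb upstream inside Csrp1, and the last, chr1:135861907-135863362 (1456 bp), 51.6 kb downstream. Tnni2, Tnnt3 and Tnnt1 had none within 100 kb, and their nearest thapsigargin peaks were 212 kb, 269 kb and 297 kb away.

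Of the lattice and fibre genes, desmin had the nearest peak, and 43.0% of protein-coding genes had a thapsigargin peak nearer than that. Desmin (chr1:75360292-75368579) was 30.8 kb from a peak inside Speg, which encodes a kinase of striated muscle (chr1:75398585-75400233, 1649 bp), and 42.7 kb from a peak at Dnpep (chr1:75317073-75318108). Nebulin was 39.9 kb from a peak of 368 bp (chr2:52378493-52378860), alpha-actinin-2 (Actn2) 54.5 kb from a peak at Heatr1 (chr13:12394777-12395606), and Ckm 66.4 kb from a peak at Ercc1 (chr7:19344019-19345359). Titin, the longest gene of the list, was 120 kb from its nearest thapsigargin peak, a 422 bp peak inside Ccdc141, and Cav3 was 223 kb from one at Rad18.

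**Figure D3:**
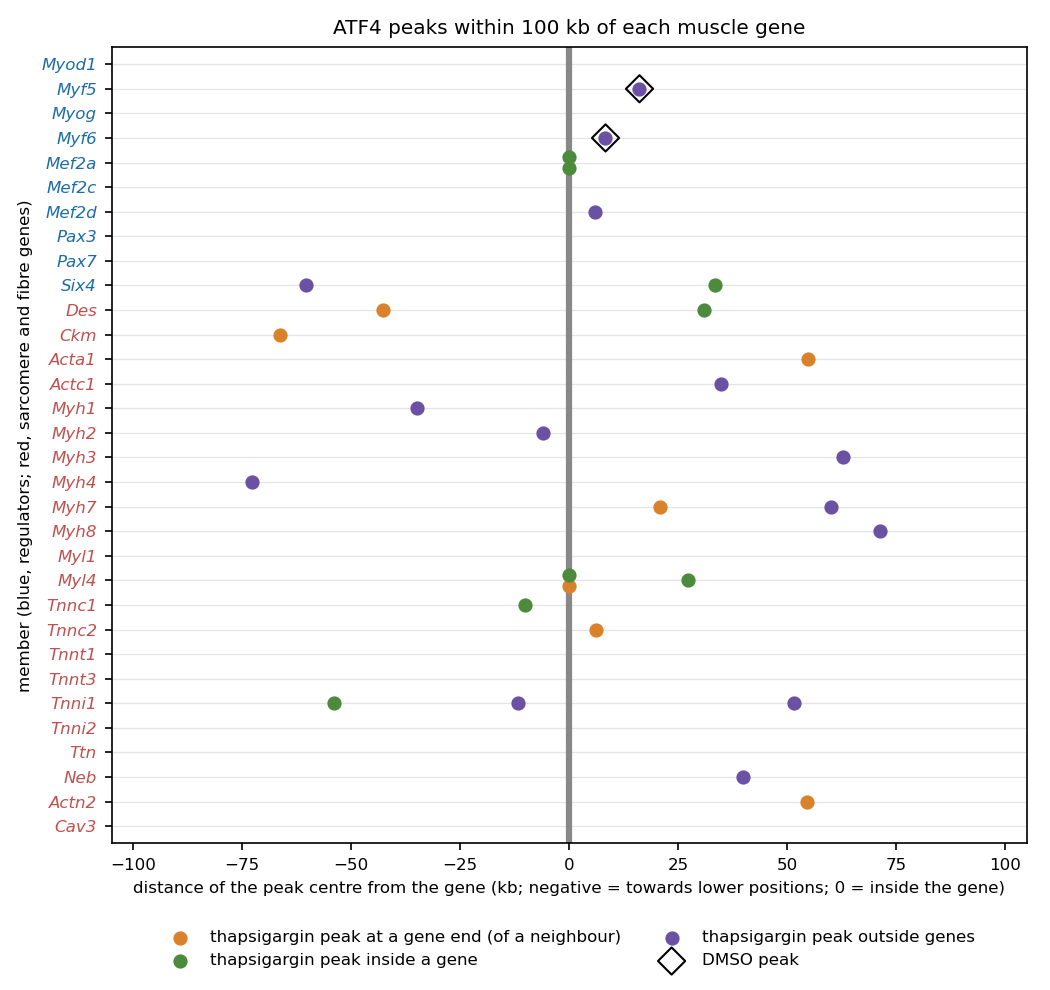
Centres of ATF4 peaks within 100 kb of each member (rows), as the distance from the gene in kb (x axis, negative towards lower positions, 0 inside the gene, where peaks of the same gene are set apart vertically). Circles are thapsigargin peaks, coloured by place, and open diamonds DMSO peaks. DMSO peaks appear only for Myf5 and Myf6, and 11 members have no peak in the window.

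The distal peaks fell by place much as the whole list did. Of the 25 distinct thapsigargin peaks within 100 kb of a member, 7 (28.0%) had their centre no more than 1 kb from where another protein-coding gene starts or stops, 8 were elsewhere inside a gene, those of Mef2a and the wide one of Myl4 included, and 10 outside genes. In the whole thapsigargin list 31.8% were at a gene end. The 7 were at Dnpep, Ercc1, Nup133, Ngdn, Cdc27, Snx21 and Heatr1, all near sarcomere and muscle fibre genes, and 0 of the 6 peaks around regulators were at a gene end. Cdc27 is also the case where the peak falls within the RefSeq interval of the member. The median width of the 25 was 1035 bp, against 1037 bp in the whole list, with a range of 368 to 2073 bp.

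Peaks at the ends of the genes next to the members were counted too. Of 121 other protein-coding genes within 100 kb of a member, 9 (7.44%) had a thapsigargin peak at an end, against 15.1% of all protein-coding genes, and 0 had a DMSO peak there. These neighbours cluster around shared loci, and the difference was not tested. Around the regulators it was 1 of 23 (4.35%) and around the sarcomere and muscle fibre genes 8 of 98 (8.16%). In a window of 500 kb to each side, regulators had a median of 5 thapsigargin peaks, sarcomere and muscle fibre genes 4 and all protein-coding genes 5.

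Related gene lists give the scale, beside the 15.1% of all protein-coding genes with a thapsigargin peak at a gene end (1.29% in DMSO). For each related list the interval at gene ends in thapsigargin included 15.1%. Of 21 cofactors and inhibitors of myogenesis, 5 (23.8%, interval 10.6% to 45.1%) had a thapsigargin peak at a gene end: Id2 (803 bp wide) and Id3 (648 bp), inhibitors of bHLH factors, Tcf3 (674 bp) and Tcf4 (294 bp), which encode E proteins that pair with MyoD, and the histone deacetylase Hdac5 (472 bp). None of the 5 overlapped a DMSO peak, where 9.25% of the whole thapsigargin list did. Of 28 further sarcomere genes 3 (10.7%) had one, namely Myom1 (1521 bp), Xirp1 (1401 bp) and Actn3 (976 bp). Within 10 kb it was 10 of 28 (35.7%, interval 20.7% to 54.2%) in thapsigargin. The 22 members of the sarcomere and muscle fibre list had 3 (13.6%, interval 4.75% to 33.3%), beside 30.5% of all protein-coding genes. Within 100 kb in DMSO it was also 10 of 28, beside 0 of the 22 (interval up to 14.9%) and 12.8% of all protein-coding genes. The difference between these lists was not tested. The Myom1 peak is the same as that of its neighbour Myl12a, and both genes also had a peak at an end in DMSO. Of 15 genes of muscle calcium handling, 1 had one (Sypl2, 433 bp), and Atp2a1 and Atp2a2, which encode the pumps that thapsigargin blocks, had none.

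Relatives of the sarcomere and muscle fibre genes were counted the same way. Most are cytoskeletal genes, but the list also holds Lmna, Cav1, Cav2 and Ckb. Of 29, 7 (24.1%, interval 12.2% to 42.1%) had a thapsigargin peak at an end, against 0 of 22 (interval up to 14.9%) and 15.1% of all protein-coding genes. Within 10 kb it was 16 (55.2%, interval 37.5% to 71.6%), against 3 of 22 and 30.5% of all protein-coding genes. The widest were at the calponin gene Cnn3 (2068 bp), the non-muscle light chains Myl6 (1587 bp) and Myl12a (1521 bp), caldesmon Cald1 (1448 bp), Lmna (956 bp) and the non-muscle heavy chain Myh10 (603 bp). In DMSO, 2 of 29 had a peak at an end, Myl12a and Cnn3. Among 27 regulators of other lineages, such as Neurod1 and Pax6, 1 had a thapsigargin peak at an end (Sox9, 1447 bp). Within 10 kb it was 4 (14.8%, interval 5.92% to 32.5%), against 3 of 10 muscle regulators and 30.5% of all protein-coding genes. These lists were chosen with earlier results of the data known, and no difference between them was tested.

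**Figure D4:**
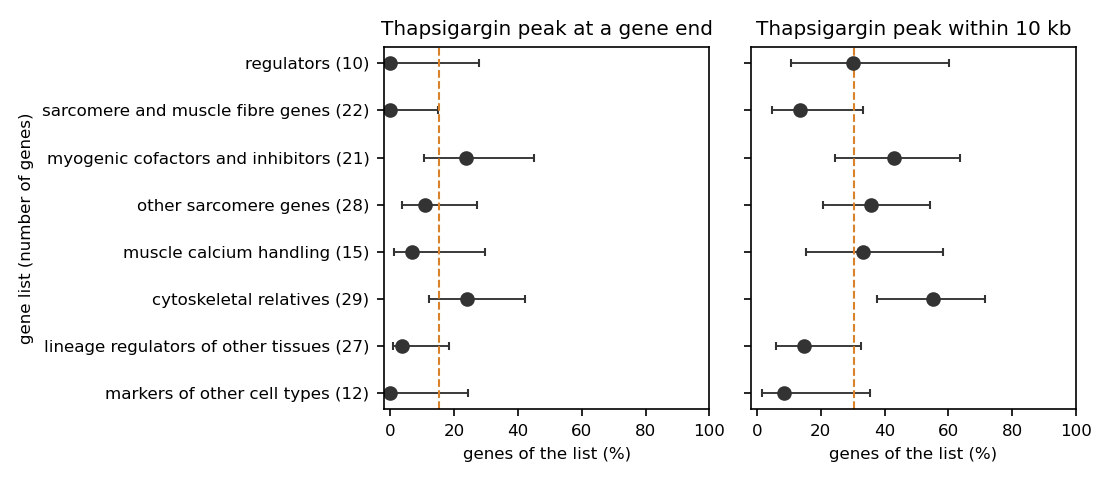
Share of each gene list (rows, number of genes in brackets) with a thapsigargin peak at a gene end (left) and within 10 kb (right), in percent with 95% Wilson intervals. The dashed line is the share of all protein-coding genes, 15.1% and 30.5%. Regulators, sarcomere and muscle fibre genes and markers of other cell types are at 0 on the left.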

How the data were processed

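Both treatment groups of ATF4 CUT&Tag were used, each through 1 peak list that the authors deposited. The lists hold chromosome, start and end as deposited, with no header, score or height. Per the submitters' processing notes, the tools were MACS2 2.2.7.1, Bowtie2 and Trim Galore 0.6.10, with the mm10 build. On parameters, thresholds, controls and the combining of replicates nothing is given in the sources used here, so depth and precision per sample are unknown. Nothing in the labels says whether replicates came from separate cultures. The other 8 groups were not used here.

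Peaks were set against RefSeq gene intervals (GRCm38.p6, chromosomes 1 to 19 and X). Positions count from 1, and peaks overlap when they share at least 1 bp. All members are accounted for. Each peak at, inside or within 10 kb of a member, the nearest thapsigargin peak within 100 kb and the 10 widest within 100 kb were to be named, of which 1 is not reported here. From other lists, up to 6 genes with a peak at an end were named by width. Peaks and genes beyond this rule were named after their values were seen. Among them are Atp2a1, Atp2a2, the peaks at Dnpep, in Itgb3 and in Csrp1, DMSO peaks and distances over 100 kb. The members and lists were chosen with earlier results of these data known, and no test was made.

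Alternatives were other windows, peak edges, starts of transcription, distance to the nearer end, the wider part of each list, equal list lengths, the nearest gene only, loci and length bands. Scripts ran in Python 3.11.15 with pandas 2.3.3, numpy 2.4.6 and scipy 1.17.1, and figures were drawn with matplotlib 3.10.9. Placement was tested on simulated data, where 1000 of 1000 genes were placed as built.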

Additional observations from a re-analysis of the deposited data

How the results depend on the processing

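No paired analysis was possible because the authors deposited 1 list per condition, which also prevents leaving out a replicate. Of 90 alternative counts of members with a peak, 73 were within 1.5 times the main count. Many of these were counts of 0 that stayed at 0, which a narrower window, fewer peaks or the nearest gene only cannot raise. The 73 thus overstate how stable the other counts were. At gene ends, windows of 500 bp and 3 kb and the peak edge left both groups at 0, and starts of transcription gave 1 (Myl4). In thapsigargin the wider 4310 peaks gave 1 sarcomere and muscle fibre gene within 10 kb (3 in the full list), 3 within 50 kb (10) and 7 within 100 kb (16), and 3 regulators within 50 kb (5). The 803 widest peaks gave 1, 2 and 4 of these genes, and 3 regulators within 50 kb. These settings use fewer peaks, and all protein-coding genes fell with them, to 32.3% and 7.98% within 50 kb. Where a peak counted only for its nearest gene, sarcomere and muscle fibre genes had 2 within 50 kb and 2 within 100 kb, and regulators 3 at both reaches. In DMSO, Myf5 and Myf6 count as 1 by nearest gene or by locus, in place of 2, within 50 and 100 kb. Peak lists without height or depth cannot show weak binding, so the zeros say only that no peak was called.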
